A study of Mus musculus with 11 samples.

Results

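The 9 genes described here encode the transcription factors that set and maintain beta cell identity: Pdx1, Mafa, Nkx6-1, Nkx2-2, Neurod1, Isl1, Pax6, Foxa2 and Rfx6. They were chosen by name, and each matched 1 of the 55487 genes in the files by its Ensembl identifier. RNA-seq was performed on beta cells FACS-sorted from cultured islets of 12-week-old male C57BL/6JRj mice. Control cells (4 libraries, replicates 1 to 4) came from islets cultured without IFNγ. PD-L1high cells (4 libraries, replicates 1 to 4) and PD-L1low cells (3 libraries, replicates 2 to 4) came from islets exposed to IFNγ at 50 pg/mL for 20 h, and were separated by the amount of PD-L1 on their surface. The labels name no engineered allele, and all 3 groups went through islet culture, dissociation and sorting of beta cells. The paper describes the beta cell gate (EpCam-positive, CD24-low, CD71-positive) for control islets and a higher IFNγ dose, and it was taken to hold here. The 2 treated groups were thus selected on a response to IFNγ, while the control cells were not divided by PD-L1. PD-L1low cells are cells of a treated islet and not untreated cells.

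Beta cell identity rests on a network of factors that bind the insulin genes, other beta cell genes and each other's genes. Pdx1, Mafa and Nkx6-1 are largely restricted to beta cells among adult islet endocrine cells (Pdx1 is also found in delta cells), and their loss accompanies dedifferentiation, in which beta cells give up insulin production. Nkx2-2, Neurod1, Isl1, Pax6, Foxa2 and Rfx6 also act in other islet endocrine cells. The study asked whether IFNγ-insensitive beta cells were a less differentiated population, and the measurement that bears on this is how far each factor could have fallen in PD-L1low or PD-L1high cells.

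None of the 9 genes passed the test in any of the 3 comparisons. The 95% intervals excluded a halving of every factor in PD-L1high and in PD-L1low cells against control cells, as it did for 69.6% and 71.9% of all tested genes. Pdx1 was the most closely bounded of the beta cell restricted factors, with at most a 17.5% lower level allowed in PD-L1low cells. Mafa was the least closely bounded, with up to a 35.1% lower level allowed there. Between PD-L1high and PD-L1low cells the intervals excluded both a halving and a doubling of every factor, as for 58.6% of all tested genes. In the same libraries Irf1, an activator of interferon-induced genes, was higher in PD-L1high than in control and in PD-L1low cells.

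Library totals were 10422038 to 15810817 expected counts, of which the 9 genes took 0.195% to 0.267%, so counting error was small: each gene had 568 to 9759 counts in every library, and all 9 passed the filter on low counts together with 16252 genes in all. Levels are given as CPM, library counts after TMM scaling to a common total, and only where genes are compared with each other as TPM, the authors' transcript values that allow for length. Beta cell markers were abundant in every library, with Ins1, Ins2, Iapp, Slc2a2 and Ucn3 summing to 60160 to 92320 CPM. The summed alpha cell markers (Gcg, Ttr, Irx2) were 317 to 1372 CPM in control, 339 to 343 in PD-L1low and 545 to 1467 in PD-L1high cells. Both PP cell markers, Ppy and Pyy, summed to 150 to 382 CPM in control, 26.8 to 33.5 in PD-L1low and 233 to 562 in PD-L1high cells. The delta cell markers (Sst, Hhex, Rbp4) summed to at most 39.4 CPM, the acinar, endothelial and stellate lists each to at most 1.05 and the leukocyte list to at most 4.76. The duct list reached 370 to 785 CPM through Krt7 and Spp1, while its defining factor Sox9 had at most 2 counts in a library. Sorted pools were measured, so fewer cells with a transcript and less of it per cell cannot be told apart.

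Per transcript length the factors fell into 3 tiers. Pax6 averaged 193 TPM, Mafa 192, Neurod1 179 and Nkx6-1 142 over the 11 libraries. Pdx1 followed at 79.4 TPM, Nkx2-2 at 73.1, Rfx6 at 57.7 and Isl1 at 54.3, and Foxa2, a forkhead factor that opens chromatin in endoderm, was lowest at 32.1. Even Foxa2 was above 95.5% of all genes in the files. Nkx6-1 was above Pdx1 in 11 of 11 libraries and Isl1 above Foxa2 in 11 of 11. Within the tiers the order was not firm: Pax6 was above Mafa in 3 of 11 libraries, Mafa above Neurod1 in 7, Pdx1 above Nkx2-2 in 7, Nkx2-2 above Rfx6 in 8 and Rfx6 above Isl1 in 7. Neurod1 was above Nkx6-1 in 10. The level of Neurod1 carries an added uncertainty, because the annotated gene Cerkl (32.6 to 69.3 CPM) spans it on the same strand and reads could be divided between them.

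**Figure D1:**
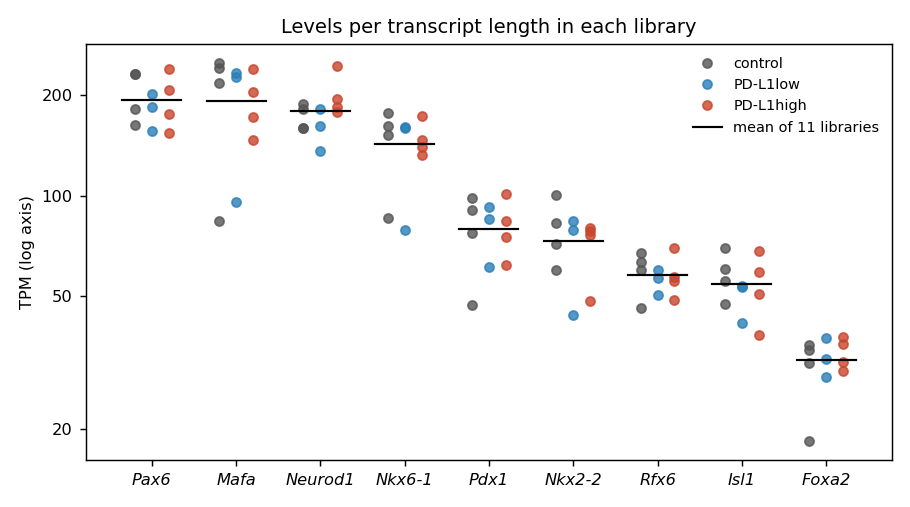
TPM on a log axis of the 9 factors in each of the 11 libraries, coloured by group, with the mean of the 11 libraries as a line. Nkx6-1 and the 3 genes above it lie higher than the rest, Foxa2 is lowest at 32.1 TPM, and the 3 groups overlap for every gene.

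Pdx1, the homeobox factor needed for pancreas formation and for insulin transcription in the adult, lies on chromosome 5 (GRCm38, 147269959 to 147275848, forward strand). Its levels in control replicates 1 to 4 were 124, 180, 184 and 149 CPM. In PD-L1low replicates 2 to 4 they were 163, 173 and 151 CPM, and in PD-L1high replicates 1 to 4 they were 141, 182, 155 and 140 CPM. Every PD-L1low value lay inside the control range, and so did every PD-L1high value. The group means were 159 ± 28.5 (SD, n = 4), 162 ± 10.9 (n = 3) and 155 ± 19.8 CPM (n = 4). The log2 fold change was -0.03 in both comparisons with control, with intervals of -0.28 to 0.21 for PD-L1low and -0.25 to 0.19 for PD-L1high cells. Between PD-L1high and PD-L1low cells it was 0.00 (-0.25 to 0.25).

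Mafa (chromosome 15, 75745490 to 75748228, reverse strand) encodes the factor that marks mature beta cells and drives insulin transcription in response to glucose. Control libraries held 286, 645, 589 and 548 CPM, PD-L1low libraries 562, 568 and 307, and PD-L1high libraries 322, 562, 549 and 505. The values formed a low set, replicate 1 of control and of PD-L1high and replicate 4 of PD-L1low, and a high set of the other 8 libraries, so each group had 1 low library. Group means were 517 ± 159 CPM in control, 479 ± 149 in PD-L1low and 484 ± 111 in PD-L1high cells. PD-L1low cells differed from control by -0.31 on the log2 scale (-0.62 to 0.01, SE 0.15, adjusted p = 1.00 by edgeR), and PD-L1high cells by -0.06 (-0.35 to 0.22). The difference between the treated groups was 0.25 (-0.08 to 0.57). Without PD-L1low replicate 4 the change in PD-L1low cells was -0.09 (-0.38 to 0.22), and the lowest bound over all alternatives was -0.83, without PD-L1low replicate 3.

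Nkx6-1, a repressor of alternative islet fates that is required for insulin secretion (chromosome 5, 101658139 to 101664996, reverse strand), had 339, 529, 456 and 444 CPM in control libraries. PD-L1low libraries held 459, 452 and 294 CPM and PD-L1high libraries 373, 470, 434 and 451. PD-L1low replicate 4 was the lowest of the 11, and the other 2 PD-L1low libraries lay inside the control range. Fitted log2 fold changes were -0.23 (-0.52 to 0.05) in PD-L1low and -0.02 (-0.27 to 0.24) in PD-L1high cells against control, and 0.22 (-0.07 to 0.50) between them. Without PD-L1low replicate 4 the first of these was -0.06 (-0.35 to 0.23).

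Nkx2-2 had the most negative fitted change of the 9. It encodes a homeodomain repressor that keeps other hormones silent in beta cells (chromosome 2, 147177546 to 147194243, reverse strand). Its levels were 120, 126, 140 and 137 CPM in control, 116, 119 and 85.0 in PD-L1low and 109, 112, 132 and 99.3 in PD-L1high libraries. The 3 PD-L1low values all lay below the 4 control values, by a margin of less than 1 CPM between PD-L1low replicate 3 and control replicate 1, and 1.43% of all tested genes were ordered in that way. The mean was 131 ± 9.45 CPM in control, 107 ± 18.8 in PD-L1low and 113 ± 13.6 in PD-L1high cells. The log2 fold change in PD-L1low cells was -0.33 (-0.59 to -0.07, SE 0.12), and it did not pass the test over all genes (adjusted p = 1.00 by edgeR). In PD-L1high cells it was -0.22 (-0.45 to 0.02), and between the treated groups 0.11 (-0.15 to 0.38). Without PD-L1low replicate 4 the change in PD-L1low cells was -0.22 (-0.52 to 0.08). That change was negative in all 22 alternatives and had an unadjusted p under 0.05 in 18 of them, without being called in any.

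Isl1, a LIM-homeodomain factor required in all islet endocrine cells (chromosome 13, 116298281 to 116309689, reverse strand), had 162, 108, 117 and 93.0 CPM in control, 99.3, 103 and 106 in PD-L1low and 117, 106, 113 and 96.6 in PD-L1high libraries. Apart from control replicate 1, all libraries lay between 93.0 and 117 CPM. Pax6, a paired-box factor that sustains insulin and glucagon expression in their own cell types (chromosome 2, 105668900 to 105697364, forward strand), had 574, 401, 434 and 338 CPM in control, 397, 360 and 387 in PD-L1low and 417, 404, 385 and 361 in PD-L1high libraries. Control replicate 1 was again the highest, and every treated library lay inside the control range for both genes. Isl1 changed by -0.09 (-0.37 to 0.18) on the log2 scale in PD-L1low and by -0.12 (-0.36 to 0.12) in PD-L1high cells against control. For Pax6 the values were -0.09 (-0.36 to 0.18) and -0.14 (-0.38 to 0.11).

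Neurod1, a basic helix-loop-helix activator of insulin transcription (chromosome 2, 79452521 to 79456751, reverse strand), had 543, 484, 387 and 455 CPM in control, 399, 441 and 434 in PD-L1low and 534, 430, 475 and 568 in PD-L1high libraries. Only PD-L1high replicate 4 lay outside the control range, above it. The log2 fold change was -0.08 (-0.34 to 0.19) in PD-L1low and 0.10 (-0.14 to 0.34) in PD-L1high cells. Rfx6, a winged-helix factor that maintains genes of insulin secretion (chromosome 10, 51677756 to 51730432, forward strand), had 248, 139, 174 and 174 CPM in control, 166, 159 and 187 in PD-L1low and 177, 155, 156 and 179 in PD-L1high libraries. Its treated values lay inside the control range, with log2 fold changes of 0.02 (-0.26 to 0.29) and -0.11 (-0.35 to 0.13). Foxa2 (chromosome 2, 148042877 to 148046969, reverse strand) had 44.1, 62.2, 62.9 and 54.9 CPM in control, 58.0, 64.9 and 61.2 in PD-L1low and 59.3, 58.3, 60.9 and 62.5 in PD-L1high libraries. Its fitted changes were positive, 0.08 (-0.19 to 0.36) and 0.12 (-0.13 to 0.36), with control replicate 1 the lowest library.

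**Figure D2:**
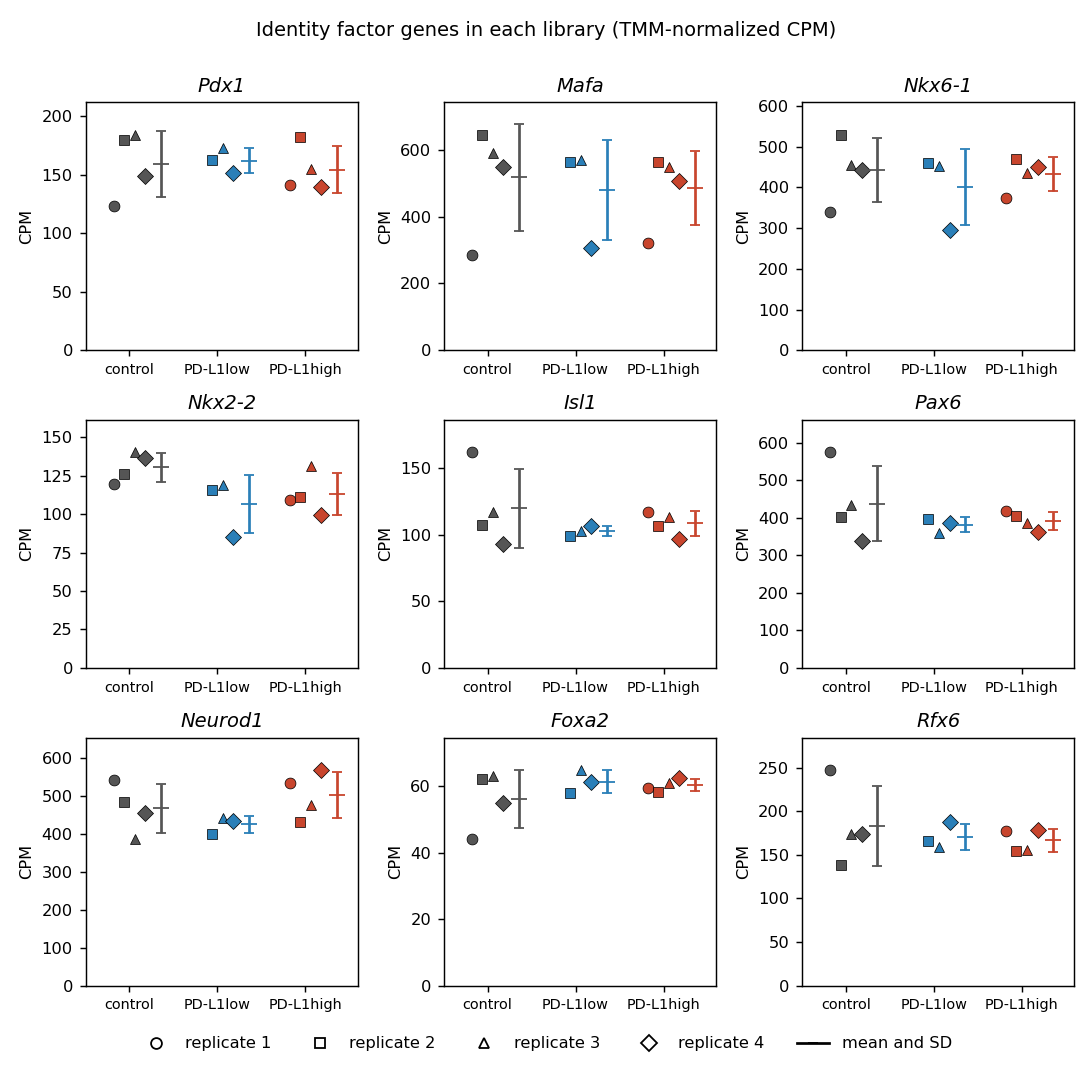
TMM-normalized CPM of each factor in each library (symbols give the replicate number), with the mean and SD of each group (n = 4 control, 3 PD-L1low, 4 PD-L1high) beside the points. The groups overlap for 8 of the 9 genes, Nkx2-2 in PD-L1low against control cells being the exception, and control replicate 1 and PD-L1low replicate 4 stand apart for several of them.

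Counted over the 9 genes, edgeR called 0 in PD-L1high against control cells, where 0.991% of the 16252 tested genes were called. It called 0 in PD-L1low against control cells (0.08% of all genes) and 0 in PD-L1high against PD-L1low cells (0.732%). DESeq2 and limma-voom also called 0 in each. At an unadjusted p under 0.05 there were 0, 1 (Nkx2-2) and 0 of the 9, against 7.65%, 2.1% and 8.52% of all genes. With backgrounds this low, a count of 0 is near the background share. The fitted changes were negative for 7 of 9 genes in PD-L1high and for 7 of 9 in PD-L1low cells, where 53% and 49.9% of all genes were negative, and these comparisons share their control libraries. The median of the 9 was -0.06, -0.09 and 0.03 in the 3 comparisons, beside -0.02, 0.00 and -0.00 for all tested genes.

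For all 9 genes in all 3 comparisons the 95% interval excluded both a halving and a doubling, which held for 62.4%, 62.3% and 58.6% of all tested genes. In PD-L1high against control cells the largest losses still allowed ran from 8.64% for Foxa2 to 26.9% for Nkx2-2. In PD-L1low against control cells they ran from 12.3% for Foxa2 to 35.1% for Mafa, with 33.7% for Nkx2-2 and 30.1% for Nkx6-1. In PD-L1high against PD-L1low cells the largest loss allowed in PD-L1high cells was 24.1%, for Rfx6. A halving alone was excluded there for 66.9% of all genes. In the other direction, PD-L1high cells could lie above PD-L1low cells by up to 48.0% for Mafa, 41.6% for Nkx6-1 and 36.2% for Neurod1. With the intervals widened for the 27 comparisons made, the largest loss allowed was 45.2%, for Mafa in PD-L1low cells. All these bounds come from the fit with replicate number as a term. Without that term, the loss allowed for Mafa was 37.6% in PD-L1high against control cells and 35.2% in PD-L1high against PD-L1low cells.

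**Figure D3:**
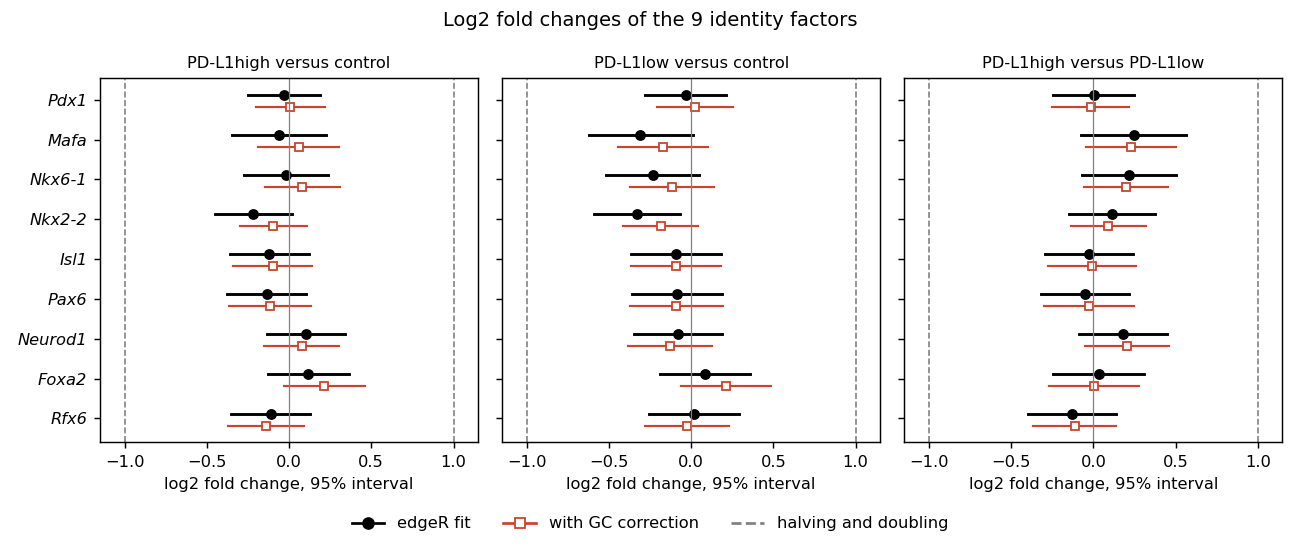
Log2 fold changes with 95% intervals of the 9 factors in the 3 comparisons, from the edgeR fit (filled circles) and from the fit with a correction for transcript GC content (open squares). All intervals lie between the dashed lines at -1 and 1, and the 3 most negative changes, Nkx2-2, Mafa and Nkx6-1 in PD-L1low cells, are nearer 0 with the correction.

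Libraries differed along the GC content of transcripts over all genes, and the 9 genes followed this in part. Mafa transcripts have 65% GC, Nkx2-2 60.8%, Foxa2 59.3%, Nkx6-1 59% and Pdx1 55.7%, all in the GC-richest quintile of tested genes (above 55.3%, with a median of 49.3%). Isl1 has 50.8%, Pax6 50.5%, Rfx6 45.1% and Neurod1 43.6%. Over all tested genes, the median deviation of the GC-richest quintile minus that of the GC-poorest was -0.54 on the log2 scale in control replicate 1, -0.22 in PD-L1low replicate 4, -0.18 in PD-L1high replicate 4 and -0.16 in PD-L1high replicate 1. It was positive, 0.06 to 0.27, in the other 7 libraries. Control replicate 1 held the lowest value of 3 of the 9 genes and the highest of 3 others, and it also had the largest share of mitochondrial counts, 13.3% against 5.54% to 11.9% in the rest. Some values went against the trend. Nkx2-2 was not low in control replicate 1 (120 CPM), nor Foxa2 in PD-L1low replicate 4 (61.2 CPM), and Mafa in PD-L1high replicate 4 (505 CPM) was among its high values. Isl1 and Pax6, with GC content close to the median, had their highest values in control replicate 1 (162 and 574 CPM).

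With each library's trend on GC content entered as an offset, the changes in PD-L1low against control cells were -0.17 (-0.44 to 0.10) for Mafa, -0.12 (-0.37 to 0.14) for Nkx6-1 and -0.19 (-0.41 to 0.04) for Nkx2-2. The losses allowed for these 3 genes were then 26.4%, 22.8% and 24.9%. Foxa2, also GC-rich, moved up as well, away from 0, to 0.21 (-0.06 to 0.48) in PD-L1low and 0.22 (-0.03 to 0.46) in PD-L1high cells. None of the 9 genes was called with this correction, which was chosen after seeing the data, and the 95% intervals of all 9 again excluded a halving.

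**Figure D4:**
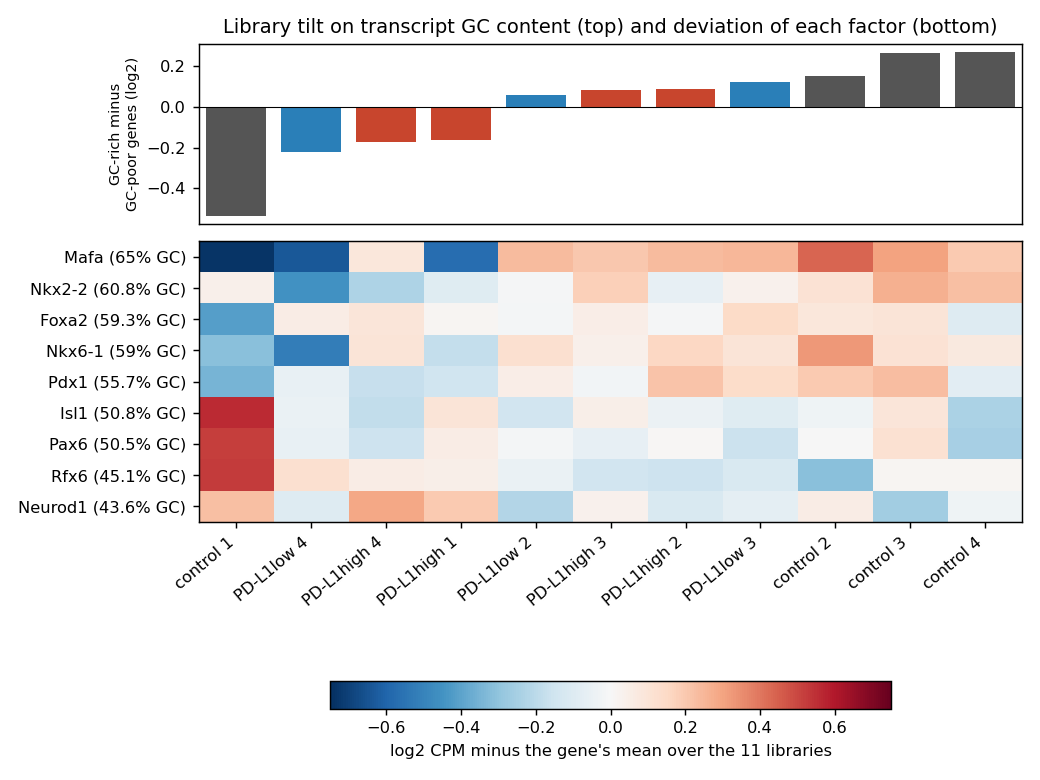
Top, the median log2 deviation of the GC-richest quintile of genes minus that of the GC-poorest in each library (3247 genes each). Bottom, log2 CPM of each factor minus its mean over the 11 libraries, with genes ordered by transcript GC content. Control replicate 1, at -0.54, is low for Mafa, Foxa2, Nkx6-1 and Pdx1 and high for Isl1, Pax6 and Rfx6, while Nkx2-2, also GC-rich, is near its mean there.

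The 9 factors did not vary as one block. Of the 36 pairs, 17 had a positive Pearson correlation of log2 CPM over the 11 libraries, with a median of -0.16. Isl1 and Pax6 went together most closely (0.95), then Mafa and Nkx6-1 (0.93) and Pdx1 and Mafa (0.76). Rfx6 ran against Mafa (-0.79), Pdx1 (-0.79) and Foxa2 (-0.77). These values describe 11 libraries that share the difference in GC trend, and the part of that trend in them was not tested. The spread left after condition and replicate number was 0.12 (Pdx1) to 0.24 (Mafa) on the log2 scale, and 8.81% to 38.2% of tested genes had a smaller one. Among genes within 0.5 of the same mean log2 CPM, the share with a smaller spread was 29% (Foxa2) to 82.4% (Mafa). Genes whose levels most resembled the mean profile of the 9, among 8835 compared, were Pdzk1ip1 (Pearson 0.90), Ltbp3 (0.87), Fam20a (0.86), Rhot2 (0.86) and Bcl6b (0.86).

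The mean transcript length that RSEM assigned, which shifts when the mix of isoforms shifts, was fixed for Pdx1, Mafa, Nkx6-1 and Neurod1, which have 1 annotated transcript each. It ranged from 1624 to 1997 bases for Nkx2-2, 1948 to 2392 for Isl1, 2054 to 2372 for Pax6, 1902 to 2044 for Foxa2 and 2929 to 3227 for Rfx6, and the 3 groups overlapped for each. Antisense genes overlap Pdx1 (Plut, 3.85 to 6.87 CPM), Pax6 (Pax6os1, 3.41 to 9.90 CPM) and Nkx2-2 (6430503K07Rik, 0.896 to 3.32 CPM). The kit keeps strand, whether the counting used it was not stated, and none of these 3 genes was called.

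The promoters of the factors were set beside one from an interferon factor. RefSeq promoter windows of 300 bases (GRCm38.p6, 250 bases before to 50 after the start) were found for 8 of the 9 genes, 11 windows in all. The gamma-activated site TTCNNNGAA, a sequence through which IFNγ-induced genes are activated, occurred in 0 of the 11 windows and in 8.30% of 32851 mouse promoters. TTC and GAA with 4 bases between them occurred in 0 of 11 and in 6.95%, and the core of the interferon-stimulated response element, GAAA and GAAA with 2 bases between them, in 0 of 11 and in 3.44%. At these background shares few or no matches among 11 windows are the usual case. TAAT, the core that many homeodomain factors bind, was present on either strand in 7 of the 11 windows (63.6%, against 58.0% of all promoters), the E-box CANNTG in 7 (72.3% of all promoters), the forkhead sequence TGTTTAC in 0 (3.65%) and the Maf half-site TGCTGAC in 1, of Foxa2 (4.67%). Among 10 windows of 7 interferon factors, TTCNNNGAA occurred in 3, of Irf1, Irf2 and Irf8. Irf2 and Irf8 were not called in PD-L1high against control cells by edgeR, and the called Irf7, Irf9 and Stat2 had no match to TTCNNNGAA. TTC and GAA with 4 bases between them occurred in 2 of these 10 windows, of Irf9 and Stat2. The core of the interferon-stimulated response element occurred in 2, of Irf2 and Stat2. Isl1 and Pax6 are shown because their levels went together most closely, and Irf1 because it holds the gamma-activated site and rose. The capitals mark TAAT, or ATTA on the printed strand, in the first pair and TTCNNNGAA in Irf1. The Isl1 bases are chr13:116309699-116309938 (reverse strand) and the Pax6 bases chr2:105668646-105668885 (forward strand), each from -250 to -11 relative to the start, and the Irf1 bases are chr11:53769884-53769983 (forward strand), from -130 to -31. The Pax6 stretch lies within the antisense gene Pax6os1.
Isl1: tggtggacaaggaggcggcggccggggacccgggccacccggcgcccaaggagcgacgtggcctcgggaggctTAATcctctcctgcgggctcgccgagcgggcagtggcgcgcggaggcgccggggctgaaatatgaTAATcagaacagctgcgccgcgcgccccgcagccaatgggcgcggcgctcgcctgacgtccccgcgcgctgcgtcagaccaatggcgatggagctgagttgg
Pax6: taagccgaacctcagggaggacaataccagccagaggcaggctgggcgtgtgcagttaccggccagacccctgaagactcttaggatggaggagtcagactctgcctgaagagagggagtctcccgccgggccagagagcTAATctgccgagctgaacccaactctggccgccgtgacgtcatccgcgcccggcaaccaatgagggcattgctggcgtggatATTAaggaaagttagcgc
Irf1: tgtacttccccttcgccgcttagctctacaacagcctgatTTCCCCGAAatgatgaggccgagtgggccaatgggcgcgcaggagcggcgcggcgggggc
The Isl1 stretch holds TAAT at -177 and -112, and the Pax6 stretch at -110 and, on the other strand, at -28. The Irf1 site begins at -90. A match of letters is a description of the sequence and not a measured site.

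Factors of the interferon pathway, in contrast, changed in the same libraries. Of 9 tested interferon factors, 5 rose in PD-L1high against control cells: Stat2, Irf1, Irf7, Irf9 and Nlrc5, the last an activator of MHC class I genes. The Stat2 call was lost without the replicate block (adjusted p = 0.055 by edgeR), and the count was 4 to 6 over the 22 alternatives. Irf1 had 30.4 to 45.4 CPM in control, 44.9 to 54.5 in PD-L1low and 105 to 148 in PD-L1high libraries. The PD-L1high libraries lay above all others, and the control and PD-L1low ranges overlapped by less than 1 CPM. Its log2 fold change was 1.80 in PD-L1high (1.52 to 2.07, adjusted p = 7.2e-07) and 0.63 in PD-L1low cells (0.31 to 0.94, adjusted p = 0.33, both by edgeR) relative to control. In PD-L1low against control cells edgeR called 0 of the 9, although 5 had an unadjusted p under 0.05. The counts there were 3 by DESeq2 and 1 by limma-voom. In PD-L1high against PD-L1low cells 4 of the 9 were higher, by 1.11 for Stat2, 1.17 for Irf1, 2.10 for Irf7 and 0.84 for Irf9 on the log2 scale. Of these 4 calls, Stat2 held in 10 and Irf9 in 12 of the 22 alternatives, and the other 2 in all 22.

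**Figure D5:**
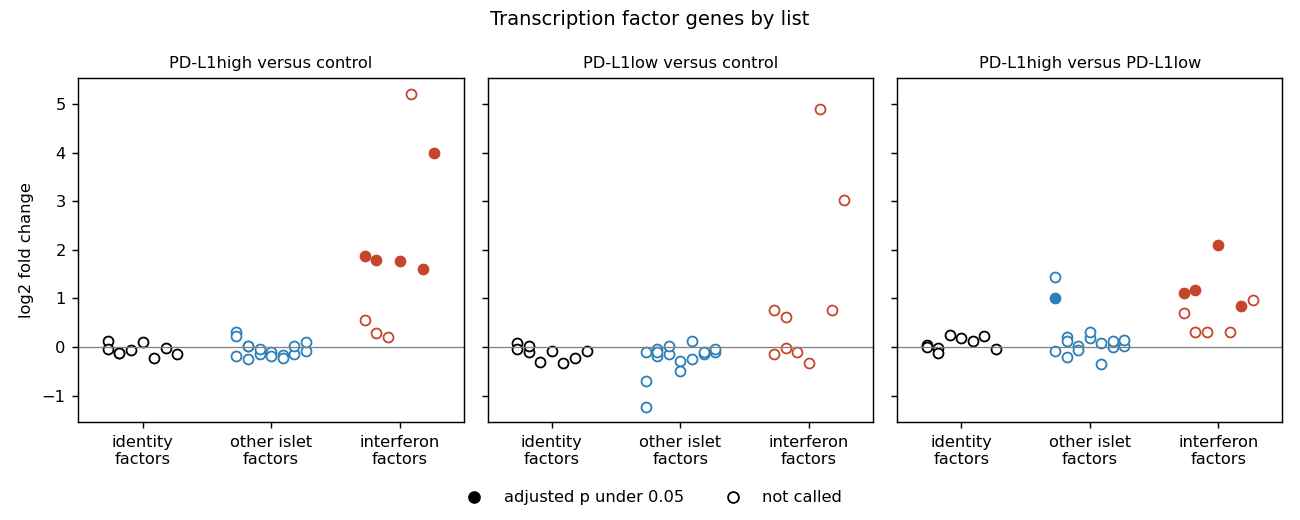
Log2 fold changes of the 9 identity factors, 16 other islet factors and 9 interferon factors in the 3 comparisons, filled where the adjusted p was under 0.05. All 9 identity factors lie between -0.33 and 0.25, 5 interferon factors are filled in PD-L1high against control cells, and Etv1 is the filled islet factor. Open points beyond 2 or -2 are Irf8 and Nlrc5.

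Other islet transcription factors gave 1 call. Of 22 listed, 16 passed the filter on low counts, and 0 were called in PD-L1high or PD-L1low against control cells (DESeq2 and limma-voom also called 0). At an unadjusted p under 0.05 there were 1 and 2 of the 16, against 7.65% and 2.1% of all tested genes. In PD-L1high against PD-L1low cells there were 3 of 16, against 8.52%. Fitted changes were negative for 10 of 16 in PD-L1high and 14 of 16 in PD-L1low against control cells (53% and 49.9% of all genes). In PD-L1high against PD-L1low cells 5 of 16 were negative (50.5%). The 2 with an unadjusted p under 0.05 in PD-L1low against control cells were Etv1, an ETS factor, and Mnx1. Their log2 fold changes there were -0.70 (-1.09 to -0.30) and -0.49 (-0.93 to -0.05). Insm1, Glis3, St18, Foxo1, Myt1, Tshz1 and Meis2, which act in endocrine differentiation or beta cell function, each averaged at least 100 CPM in every group. Etv1 was higher in PD-L1high than in PD-L1low cells by 1.01 on the log2 scale (0.62 to 1.41, adjusted p = 0.017 by edgeR). Its levels were 51.4 to 67.5 CPM in control, 29.7 to 47.7 in PD-L1low and 56.6 to 97.8 in PD-L1high libraries, so the PD-L1low libraries lay below both other groups. The call was lost in 5 of 22 alternatives, among them leaving out PD-L1low replicate 2 or 4 or PD-L1high replicate 3 or 4. The PP cell marker sums given above were also lowest in PD-L1low cells, and the median alpha cell marker sum was 342 CPM there against 818 in control and 1052 in PD-L1high cells. Their part in the Etv1 difference was not tested. Hhex, the delta cell factor, was at 0 to 0.45 CPM in all libraries, far below the 9 factors.

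Genes that these factors are known to control were called in 0 of 20 cases in each comparison by edgeR, with 5, 1 and 4 of them at an unadjusted p under 0.05, beside 7.65%, 2.1% and 8.52% of all tested genes. The 5 in PD-L1high against control cells, Slc30a8, Gipr, Glp1r, Trpm5 and Slc2a2, all had negative values. Over the list 16 of 20 values were negative in PD-L1high and 17 of 20 in PD-L1low against control cells (53% and 49.9% of all genes), and 9 of 20 in PD-L1high against PD-L1low cells (50.5%). The median was -0.10, -0.15 and 0.02 in the 3 comparisons. The list holds the insulin genes, Iapp, Slc2a2, Slc30a8, Pcsk1, Ucn3, Glp1r, Gipr and others. DESeq2 called 3 of the 20 in PD-L1high against control cells, all lower: Slc30a8 (adjusted p = 0.009), Gipr (0.0066) and Glp1r (0.026). It called 2 in PD-L1high against PD-L1low cells, also lower: Gipr (adjusted p = 0.0032) and Glp1r (0.012). The count by limma-voom was 0. Ins1 differed from control by 0.07 (-0.22 to 0.35) in PD-L1high and by -0.19 (-0.51 to 0.14) in PD-L1low cells on the log2 scale. Gipr, the receptor for the incretin GIP, had 25.3 to 85.1 CPM in control, 42.6 to 52.1 in PD-L1low and 22.3 to 29.1 in PD-L1high libraries. Its log2 fold change was -0.91 (-1.43 to -0.38, adjusted p = 0.20 by edgeR) in PD-L1high against control cells and -1.07 (-1.65 to -0.49, adjusted p = 0.16) against PD-L1low cells. Slc30a8, a zinc transporter of the insulin granule, and Glp1r, the GLP-1 receptor, had values of -0.39 (-0.61 to -0.17) and -0.32 (-0.54 to -0.10) in PD-L1high against control cells.

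Genes linked to dedifferentiation or normally kept off in beta cells were at low levels. Of 14 listed, 5 passed the filter, and 0 were called in any comparison by edgeR, DESeq2 or limma-voom, with 1, 0 and 1 at an unadjusted p under 0.05. Aldh1a3, a marker of failing beta cells, reached at most 1.25 CPM and 12 counts in any library, with a log2 fold change of 3.13 in PD-L1high against control cells (0.54 to 6.53, adjusted p = 0.53 by edgeR). Neurog3, the progenitor factor, had at most 12 counts in any library. Ldha, a metabolic gene that mature beta cells silence, had at most 21 counts. Its log2 fold change was -2.67 in PD-L1high against PD-L1low cells (-5.21 to -0.43, adjusted p = 0.51 by edgeR).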

How the data were processed

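RNA-seq was analysed for 11 libraries, grouped by their labels. Age and sex of the mice are from the paper's methods and the dose from its results. The beta cell gate is from its supplementary legend for a higher IFNγ dose. The authors made strand-specific, random-primed libraries (NuGEN Ovation Solo), mapped reads with STAR 2.5.2b to GRCm38.p6 with GenCode M23 and quantified genes with RSEM (version not given in the sources used here). The deposited expected counts are not normalized and the deposited TPM values are scaled per library by RSEM. Whether molecular identifiers were used was not stated, so p-values and intervals do not allow for duplicate reads. The paper's methods describe replicates as independent biological samples.

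Expected counts were rounded. Genes passing filterByExpr (count minimum 10; 16252 of 55487) were fitted with edgeR 4.0.16 (R 4.3.3): TMM, condition and replicate number as terms, because the study fitted a batch term that it did not define, robust quasi-likelihood test, Benjamini-Hochberg adjustment over all tested genes within a comparison, threshold 0.05. The 95% intervals invert that test and are not adjusted unless said to be widened (Bonferroni over 27). The script was tested on simulated data, in which the check of the intervals held no replicate effect and no GC trend. The 22 alternatives were no replicate block, RLE, upper quartile or library size scaling, no filter or a count minimum of 50, DESeq2 1.42.0, limma-voom (limma 3.58.1), only the groups compared, leaving out each library, and, chosen after seeing the data, leaving out replicate 1 and a GC correction. Library deviations and GC content of transcripts use GENCODE M21 on GRCm38.

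Members and lists were chosen with earlier results of these data known. Named genes are the 9 members, from each list the 4 or fewer genes of lowest p in a comparison, the 5 nearest profiles, and genes overlapping a member. Insm1, Glis3, St18, Foxo1, Myt1, Tshz1, Meis2, Hhex, Neurog3, Slc2a2, Ins1 and Irf2 were named after their values were seen. Some genes of the lists are not reported here and were left out of the list counts and marker sums.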

Additional observations from a re-analysis of the deposited data

How the results depend on the processing

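Over the 22 alternatives, 0 of the 9 factors were called and all 9 intervals excluded a halving in each comparison. The lowest bound was -0.83 (Mafa in PD-L1low cells without PD-L1low replicate 3, a loss of 43.7%). Same-numbered libraries of different groups deviated together above 0.1 in 7 of 10 pairs (-0.37 to 0.46), and other pairs in 7 of 30 (-0.41 to 0.35). Of the 11 libraries, 7 correlated best with one of their own number. This is a hint from the data that libraries of a number go together, but not every pair did. No source says that a number marks a shared animal or day. The main fit used replicate number as a term all the same, so its intervals and p-values rest on that grouping. Without the replicate block, Mafa in PD-L1low against control cells was -0.11 (-0.74 to 0.53), and the interferon factors called in PD-L1high against PD-L1low cells were 2 in place of 4.

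The counts over all genes moved more. In PD-L1high against control cells (161 called) they were 328 with no filter and 249 with DESeq2. In PD-L1low against control cells (13) they were 20 with library size alone, 91 with no filter, 47 with DESeq2 and 33 with only the groups compared. In PD-L1high against PD-L1low cells (119) they were 354 with no filter and 203 with DESeq2. Leaving out libraries gave 110 to 269, 8 to 43 and 64 to 143.

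Target genes called were 1 with no filter and 3 with DESeq2 in PD-L1high against control cells, and 1 with no filter, 2 with DESeq2 and 1 with only the groups compared in PD-L1high against PD-L1low cells (0 to 1 without single libraries in both). Other islet factors called were 1 with no filter in PD-L1low against control cells, and 0 with only the groups compared in PD-L1high against PD-L1low cells (0 to 1 without single libraries). Interferon factors called in PD-L1low against control cells were 1 with library size alone, 4 with no filter, 3 with DESeq2, 1 with limma-voom and 2 with only the groups compared (0 to 4 without single libraries). In PD-L1high against PD-L1low cells they were 2 with upper quartile scaling and 2 with a count minimum of 50 (2 to 5 without single libraries). The cause of these changes was not tested. Where a group is left with fewer libraries, the pooled spread of all groups is assumed for it.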
